A study of Mus musculus with 4 samples.

Results

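The mRNAs of the mitochondrial ribosomal proteins, nuclear genes whose proteins are imported into mitochondria, were compared between RNA bound by the ribosomal protein RPS2 and total RNA in cultured mouse neurons. Members were the protein-coding genes whose GENCODE M21 symbol begins with Mrps or Mrpl and a number. The rule found 78 of the 31053 genes in the count tables, with 29 Mrps genes (small subunit, by symbol) and 49 Mrpl genes (large subunit) spread over 17 chromosomes. The samples were primary cortical neurons of wild-type mice, which the study's methods describe as cultures from embryonic day 18 C57BL/6J cortices treated with floxuridine, an inhibitor of cell division. There were 2 libraries of RPS2 IP and 2 of total RNA, and the total RNA was taken from the same samples before the pulldown. The IP libraries were made by enhanced crosslinking and immunoprecipitation (eCLIP), in which RNA and protein are crosslinked in the cell and the complexes are pulled down with an antibody. By GEO's labels the IP samples were treated by rRNA depletion and the total RNA samples were not treated, whereas the study's methods place depletion after library preparation and name no libraries. If the labels hold, an effect of that step and of the IP cannot be told apart. The study divided IP by total RNA counts per gene for a value of translational efficiency. It compared means of that value over groups of genes with its editing-based measure of translation. Here the ratio is read for single genes and for the members as a set. No label or method says whether each of the pairs was a separate dissection, so the p-values speak for these libraries only. They rest on an error shared across genes, as described under processing, and not on the spread of each gene by itself.

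Mitochondria have ribosomes of their own. These mitoribosomes translate the few mRNAs encoded by mitochondrial DNA, all of which code for subunits of the respiratory chain and ATP synthase, while the ribosomal proteins themselves are made by cytosolic ribosomes, to which RPS2 belongs. Some of these proteins descend from bacterial ribosomal proteins and others are found in mitochondrial ribosomes alone. Because neurons depend heavily on respiration, the cytosolic translation of these mRNAs bears on how the mitochondrial gene products are supplied.

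The start of each mRNA is shown first, because the mRNAs of cytosolic ribosomal proteins are known for a C followed by a run of pyrimidines at that place, the 5'TOP motif, through which their translation is controlled. RefSeq promoter windows (GRCm38.p6, the mm10 build) matched 69 of the 78 members. Each line gives 10 bases before and 20 bases from the annotated start, on the strand of the gene, with the first 5 transcribed bases in capitals. The first 5 genes are members that the results turn on. The last, Fau and Rpl14, are cytosolic ribosomal protein genes that were picked because they hold the motif.
Mrps23, chr11:88204378-88204407 (+): cttggcttgcTTGCTgccgcttccgcttcc
Mrps18c, chr5:100798749-100798778 (+): gaagaggaagGGCGGagaaccatggccgct
Mrps15, chr4:126046918-126046947 (+): gaaccgatccATTCGctcagccctcggcag
Mrpl36, chr13:73330999-73331028 (+): tggcgtcccaCTCCActgcgcagacgcgga
Mrpl14, chr17:45686339-45686368 (+): ggagaaccccTGGCGcgcaggcgcagcgtg
Fau, chr19:6057937-6057966 (+): gcccccacttCTTCCtctttcttgactcca
Rpl14, chr9:120571507-120571536 (+): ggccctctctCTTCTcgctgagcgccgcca
A C followed by 4 pyrimidines at the annotated start was found in 0 of the 69 members. The same pattern was found in 14 of 64 cytosolic ribosomal protein genes (21.9%) and in 3.01% of all genes in the table. Nuclear genes for subunits of the respiratory chain and ATP synthase are together called respiratory chain genes here, and 4 of 67 held it (5.97%). Annotated starts can differ from the starts used in these neurons by some bases, and a match or its lack is a description of these letters. Most cytosolic ribosomal protein genes lacked the pattern by this search too.

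The promoters also held motifs of factors known for housekeeping and mitochondrial genes. The ETS core CCGGAAG, searched on both strands of the 300-base window, was present in 26 of the 69 members (37.7%) and in 9.93% of all genes, with shares of 42.3% among Mrps and 34.9% among Mrpl genes. The NRF-1 type motif, searched as GCGCA, any base and GCGC on both strands, was present in 13 members (18.8%) against 5.19% of all genes. Cytosolic ribosomal protein genes held these motifs at 40.6% and 9.38%, and respiratory chain genes at 23.9% and 25.4%. The motif is in capitals in the following stretches, printed on the strand of the gene, and Mrps21 held both.
Mrps23, chr11:88204395-88204417 (+): cgcttccgCTTCCGGtaacagcc
Mrps21, chr3:95871482-95871504 (-): agcttccgCTTCCGGtccgcaga
Mrps21, chr3:95871588-95871613 (-): aaagtccaGCGCCTGCGCtcagcacc
Mrpl14, chr17:45686345-45686370 (+): cccctggcGCGCAGGCGCagcgtgcg
One promoter was shared by a gene of each subunit. Mrpl46 and Mrps11 lie head to head on chromosome 7, with 41 bases between their RefSeq starts at 78783089 and 78783131.

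These mRNAs were detected at low to moderate levels in every library. With the exception of Mrpl53 the members had counts in all 4 libraries, and 73 had at least 10 counts in each. Total RNA counts of the tested members ran from 4 to 241 per gene, so a single member was measured with limited precision. Summed over all members, IP libraries held 882 and 1016 CPM (counts scaled to one common total by effective library size), and total RNA held 801 and 927 CPM in the same order of replicates. Gm42418, annotated as a lincRNA, took 42.6% and 27.9% of all counts in the IP libraries and 39.8% and 15.3% in total RNA. Totals were 4899718 to 16460545. This gene stayed in the library sizes used for scaling and was taken out only before thinning. Its part in the fit scaled by library size only was not tested. Without Gm42418, members made up 0.129% (95% Wilson interval 0.127 to 0.132) and 0.158% (0.155 to 0.161) of IP counts. Their share of total RNA counts was 0.113% (0.109 to 0.117) and 0.136% (0.132 to 0.139), lower than in the IP of the same replicate number in each pair. The intervals cover counting error only.

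Levels between members are compared as CPM per kilobase of exon, averaged over the 4 libraries. The highest was Mrpl34, a bacterial-type protein of the large subunit, at 26.2 and 22.5 CPM per kb in IP and 23.5 and 15.4 in total RNA. Mrpl2, the homologue of a core protein near the peptidyl transferase centre, had 17.4 and 18.3 CPM per kb in IP and 17.9 and 21.6 in total RNA. Mrpl28, another bacterial-type member, had 14.0 and 17.7 in IP and 14.9 and 18.2 in total RNA. These neighbours in the order overlapped one another across libraries, so their ranks cannot be separated by the spread of the data. Among Mrps genes the highest was Mrps34, a mitochondria-specific protein, at 12.2 and 14.6 CPM per kb in IP and 13.1 and 15.4 in total RNA. Mrps12, the homologue of the decoding-centre protein of bacteria, followed with 10.3 and 10.5 in IP and 11.99 and 10.7 in total RNA. Mrps21 had 11.7 and 7.78 in IP and 6.33 and 6.90 in total RNA. The lowest of the tested members was Mrpl23 at a mean of 0.319 CPM per kb, 68.7-fold under Mrpl34, and 51 members lay between 2 and 10 CPM per kb.

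The annotation touched several of these levels. Exonic length is the union of all annotated exons, so genes with long alternative exons have low values per kb. Mrpl53 was listed at 0 in all 4 libraries, and 695 of its 790 exonic bases (88.0%) are shared on the same strand with Gm42688, where a read falls in both genes and was not counted. Exons of Mrps34 overlap Nme3 over 37.0% of their length, those of Mrps6 overlap Gm49711 and Slc5a3 over 19.9%, and those of Mrps24 overlap Urgcp over 15.4%. A further 20 members have a near-identical pseudogene copy (at least 95% identity over at least 250 bases of transcript), and reads that aligned to both places were left out. Their values are uncertain for that reason, and among the genes described here they are Mrps5, Mrps18c, Mrps21, Mrpl23, Mrpl41, Mrpl42 and Mrpl51.

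**Figure D1:**
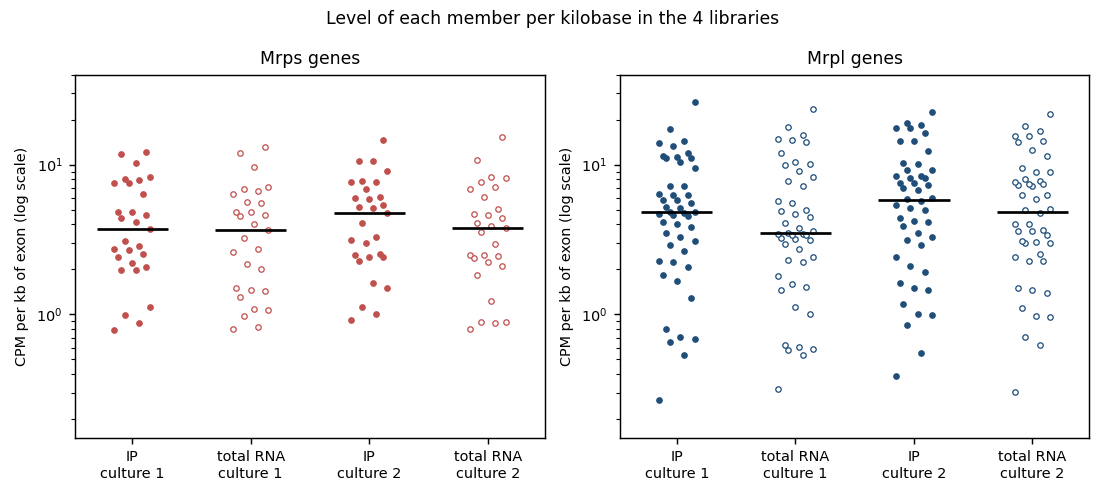
Level of each tested member in CPM per kilobase of exon (log axis), for the small-subunit and large-subunit genes in IP and total RNA of each replicate number. Points are genes and the bar in each column is the median, which lay between 3.66 and 4.76 for Mrps genes and between 3.48 and 5.79 for Mrpl genes. The columns overlap over most of their range.

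Most members lay slightly higher in RPS2 IP than in total RNA, and 1 of 77 passed the test. The median log2 fold change of IP over total RNA was 0.15 over the 77 tested members, with quartiles of 0.03 and 0.32, against a median of 0.01 over all 12336 genes tested. In 60 of 77 members the fitted change was above 0 (77.9%), as it was in 51.3% of all genes. Mrps23 alone was called higher and 0 members were called lower, by edgeR's quasi-likelihood test with the replicate number as a block and Benjamini-Hochberg adjusted p under 0.05. Of all genes tested, 6.63% were called higher and 7.55% lower, so the members' share of calls (1.299% and 0%) was under the background in both directions. Members had a larger median standard error than all genes (0.24 against 0.19). At those errors a call needed a log2 change of 0.66 for members and 0.51 for all genes. The part of this in the members' lower shares was not tested. The 818 higher and 931 lower calls over all genes became 283 and 878 with scaling by library size only, and 586 and 328 with an offset for GC content and length. At an unadjusted p under 0.05 there were 10 members (13.0%), against 26.1% of all genes. In a fit without the block, 0 of all 12336 genes were called, with 349 genes (2.83%) and 0 members under an unadjusted p of 0.05, and the members' median was 0.15 there too.

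The median moved with the scaling. With an offset for GC content and exonic length it was 0.046, which is 0.024 above the median of all genes in that fit, whereas it was 0.141 above it without the offset. With scaling by library size only it was 0.062 and the median of all genes was -0.073, so members lay 0.135 above it. Fits that left out a single library could not keep the pairing, so the difference between the replicate numbers entered them. In these the median was 0.016 without IP replicate 2, 0.066 without total RNA replicate 1, 0.26 when IP replicate 1 was left out and 0.32 when total RNA replicate 2 was.

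The pattern held for the sum within each replicate number, while single genes changed from one pair to the other. The members' summed CPM was 1.10 times as high in IP as in total RNA in both pairs, and the median ratio of a member was 0.17 (log2) in pair 1 and 0.16 in pair 2. The ratio was above 0 in both pairs for 39 members and below 0 in both for 9. Of all genes tested, 34.3% had a ratio above 0 in both pairs and 32.2% had one below 0. Both IP libraries lay above both total RNA libraries for 21 members (27.3%, against 16.9% of all genes) and below them for 3 members (against 14.9%), and the groups overlapped for the other 53. Across members the ratio in pair 1 had almost no correlation with that in pair 2 (Spearman -0.01 and Pearson 0.03 over 77 genes), whereas over all genes the values were 0.40 and 0.37. Genes of one library share its depth and scaling, so these correlations are descriptions. The standard deviation of the members' log2 fold changes was 0.274, equal to the root mean square of their standard errors (0.274), and over all genes it was 0.420 against 0.283. The spread of the members was thus no larger than the average error of a single member.

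**Figure D2:**
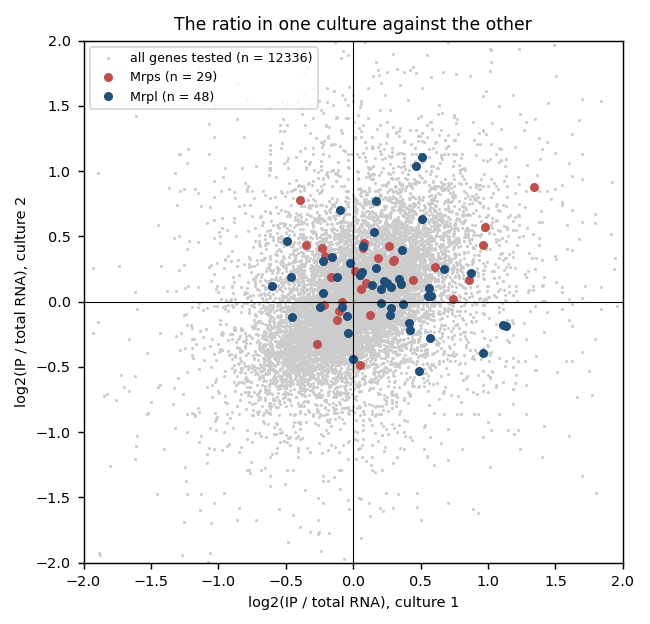
Log2 ratio of IP over total RNA in pair 1 (x axis) and pair 2 (y axis) for every tested gene in grey and for the members coloured by subunit, with 98 genes outside the axes. Members sit around the upper right of the origin, with 39 above 0 in both pairs and 9 below 0 in both, and they show no slope.

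Small and large subunit genes had like medians, and the order between them turned from one pair to the other. The median log2 fold change of the 29 Mrps genes was 0.13, with 0.07 in pair 1 and 0.23 in pair 2. The 48 tested Mrpl genes had a median of 0.15, with 0.22 in pair 1 and 0.12 in pair 2. The difference of small minus large was -0.02 in the fit, -0.15 in pair 1 and 0.11 in pair 2, and it was not tested. Summed CPM was 1.08 and 1.12 times as high in IP as in total RNA for Mrps genes, and 1.11 and 1.09 times for Mrpl genes. Mrps genes supplied 36.4% and 35.0% of the members' counts in the IP libraries and 37.1% and 34.4% in total RNA. In an unpaired fit without IP replicate 2, which sets IP replicate 1 against both total RNA libraries, the median of the Mrpl genes was -0.01 and that of the Mrps genes 0.06.

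**Figure D3:**
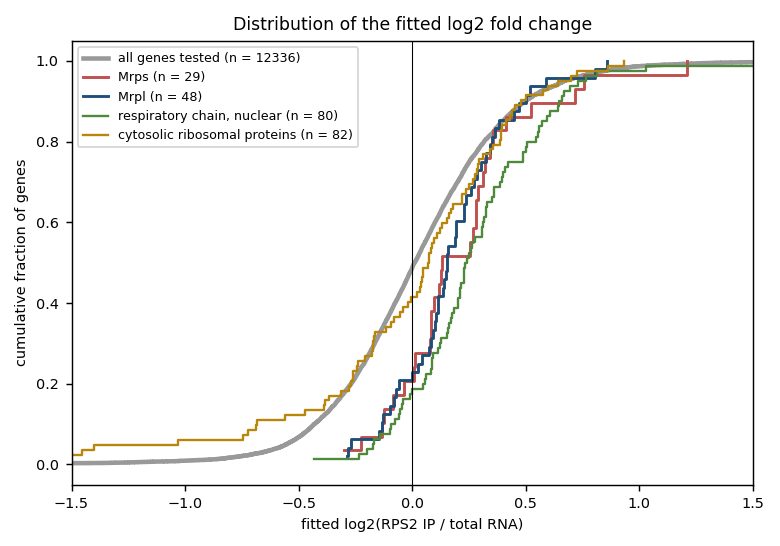
Cumulative share of genes by log2 fold change of IP over total RNA from the blocked fit. Curves are drawn for Mrps genes, Mrpl genes, nuclear-encoded respiratory chain genes, cytosolic ribosomal protein genes and all 12336 tested genes. Of all tested genes, 76 lie outside the axis. Both member curves lie right of the curve of all genes around the middle, with medians of 0.13 and 0.15 against 0.01, and they run close to each other.

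Mrps23, a mitochondria-specific protein of the small subunit (ENSMUSG00000023723, mm10 chromosome 11, 88204388 to 88211507), was the only member called higher. Its level was 12.5 and 16.5 CPM in IP and 6.24 and 11.01 CPM in total RNA, from 173 and 184 counts against 28 and 67. Both IP libraries lay above both total RNA libraries, though total RNA of replicate 2 was close to IP of replicate 1. The log2 fold change was 0.76 ± 0.23 (SE), a 1.69-fold higher level with a 95% interval of 0.30 to 1.21 on the log2 scale, and the adjusted p by edgeR's quasi-likelihood test was 0.0121. The ratios within pairs were 0.98 and 0.58. The call was made in 5 of 9 fits with the block. It was lost with scaling by library size only (0.67, adjusted p 0.0528), with the GC and length offset (0.61, adjusted p 0.0859) and with libraries thinned to one depth (0.66, adjusted p 0.0784), and DESeq2 gave it no adjusted p. Without the block its change was 0.74 with an unadjusted p of 0.0974 in edgeR, and with single libraries left out, also without the block, it ranged from 0.40 to 1.21.

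The other Mrps genes with the highest ratios of the same sign in both pairs did not pass the test. Mrps18c, one of the mitochondrial homologues of bacterial S18, had 2.60 and 2.60 CPM in IP and 0.891 and 1.32 in total RNA, from only 4 and 8 counts in the latter. Its change of 1.21 ± 0.56 (SE) was the largest of all members and the only one over 2-fold, and its adjusted p in edgeR was 0.137. Mrps6, a homologue of bacterial S6, had 4.12 and 3.86 CPM in IP against 2.00 and 2.79 in total RNA, a change of 0.72 ± 0.43. Both genes were separated between the groups in all 4 libraries, at levels where a few reads move the ratio. Mrps21 had 8.67 and 5.75 CPM in IP and 4.68 and 5.10 in total RNA, a change of 0.52 ± 0.31. Mrps17, a bacterial-type member, had 14.4 and 19.6 CPM in IP and 9.35 and 16.3 in total RNA, so its groups overlapped while each pair had the higher value in IP.

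At the lower end of the Mrps genes with one sign in both pairs, Mrps15, the homologue of a bacterial protein that binds the small subunit rRNA early in assembly, had 13.4 and 10.3 CPM in IP and 16.3 and 13.0 in total RNA. Its change was -0.30 ± 0.21, and the groups overlapped. Mrps5, a bacterial-type member, had a change of -0.13 ± 0.20, Mrps12 one of -0.12 ± 0.23 and Mrps34 one of -0.09 ± 0.15, each smaller than its standard error. Next among the Mrps genes with one sign in both pairs was Mrps30 at 0.08 ± 0.17, which had 19.0 and 20.9 CPM in IP against 18.3 and 19.6 in total RNA. The sign of Mrps30 was negative with scaling by library size only, which lowered the median of all genes from 0.01 to -0.07 and Mrps30 along with it. With the GC and length offset the signs of Mrps30 and Mrps34 flipped, as that of Mrps15 did after thinning. Of these genes Mrps12 alone had each IP value under each total RNA value (10.7 and 10.96 against 12.5 and 11.2 CPM), and the groups overlapped for the rest.

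Among Mrpl genes, Mrpl36 and Mrpl14 had the highest ratios of the same sign in both pairs. Mrpl36, the homologue of the smallest bacterial large-subunit protein, had 5.49 and 6.29 CPM in IP and 3.79 and 2.79 in total RNA. Mrpl14, which lies at the face toward the small subunit and binds the assembly factor Malsu1, had 5.93 and 7.99 CPM in IP and 4.23 and 3.78 in total RNA. For both, the IP libraries lay above both total RNA libraries. The changes were 0.86 ± 0.36 and 0.80 ± 0.33, with adjusted p of 0.0944 and 0.0857 in edgeR, and neither was called in any of the 8 fits with the block that gave them an adjusted p. Mrpl49, a mitochondria-specific protein, had 8.96 and 9.79 CPM in IP and 6.24 and 6.25 in total RNA, a change of 0.59 ± 0.28. Mrpl11, the homologue of a protein at the base of the stalk where translation factors bind, had 12 and 12.1 CPM in IP and 6.46 and 10.4 in total RNA, a change of 0.52 ± 0.24. Mrpl41, another mitochondria-specific member, had 10.05 and 9.16 CPM in IP and 8.91 and 5.26 in total RNA, a change of 0.47 ± 0.27. The groups were separated for all of these genes, and 0 of them passed the test. With single libraries left out and no pairing, the change ranged from 0.22 to 0.90 for Mrpl11 and from 0.11 to 0.87 for Mrpl41.

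Mrpl38, a mitochondria-specific protein of the large subunit, was the lowest Mrpl gene with one sign in both pairs. It had 29.3 and 36.5 CPM in IP and 40.3 and 39.6 in total RNA, so each IP value was under each total RNA value. Its change was -0.28 ± 0.13, with a 95% interval of -0.55 to -0.02, an unadjusted p of 0.0363 and an adjusted p of 0.156 in edgeR. Mrpl2 had a change of -0.15 ± 0.16 and Mrpl28 one of -0.06 ± 0.17, both smaller than their errors. The mitochondria-specific members Mrpl43 and Mrpl51 had changes of -0.13 ± 0.18 and -0.08 ± 0.26. The groups overlapped for Mrpl2, Mrpl28 and Mrpl43, while both IP values of Mrpl51 were under both of total RNA by a small margin (9.03 and 8.53 against 9.35 and 9.21 CPM). Some Mrpl genes had large ratios of opposite sign in the pairs, with 1.11 and -0.18 for Mrpl33, 1.14 and -0.19 for Mrpl16 and 0.96 and -0.39 for Mrpl42. In all, the ratios of 26 members differed by over 0.5 between the pairs.

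**Figure D4:**
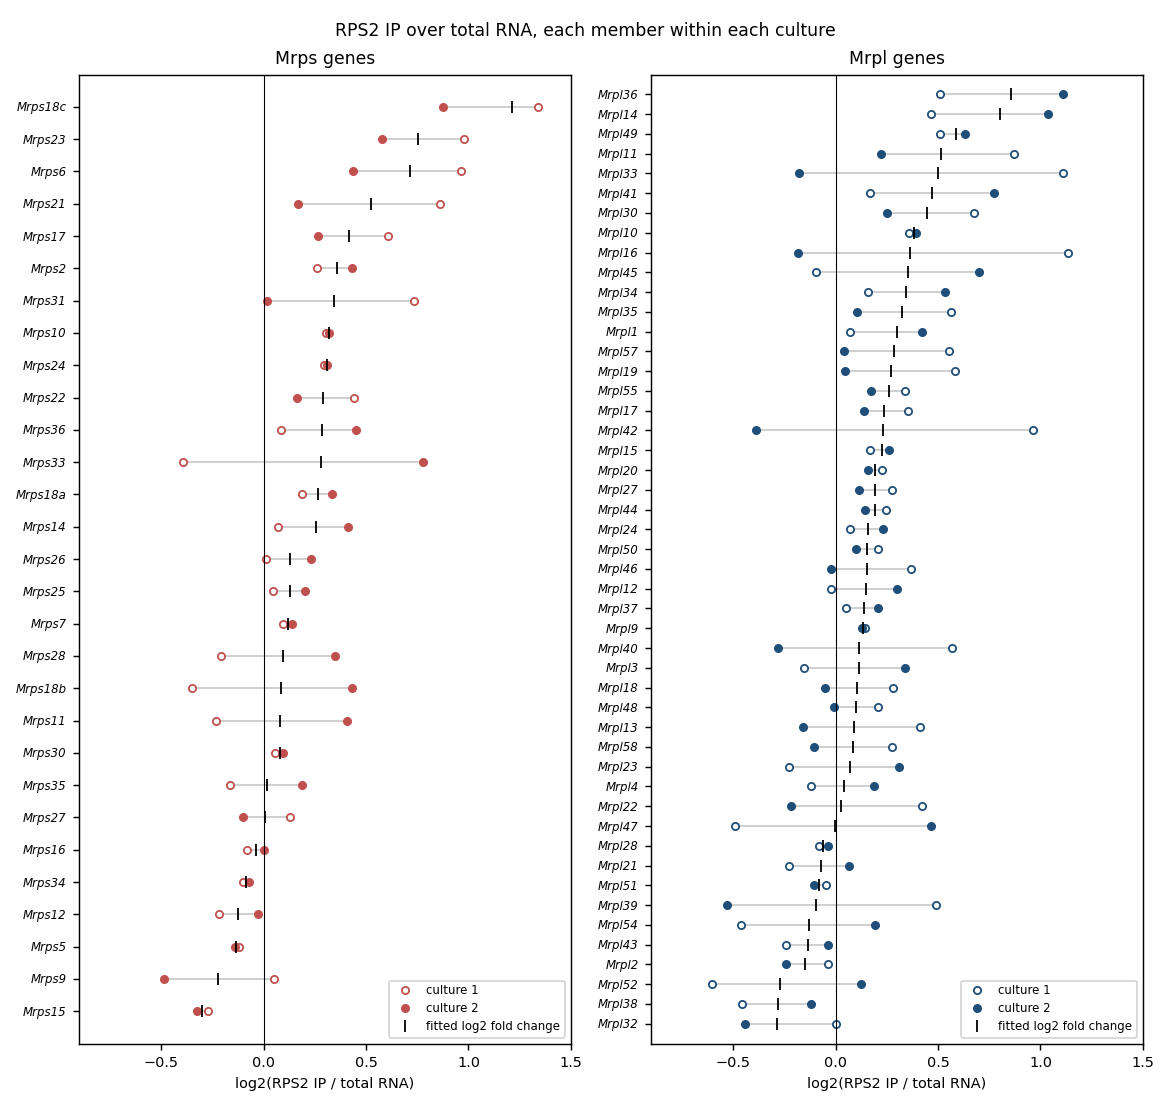
Log2 ratio of IP over total RNA for each tested Mrps gene (left) and Mrpl gene (right). Points mark pair 1 and pair 2, a grey line joins them, and a tick marks the fitted change from edgeR. Genes are ordered by the fitted change, from 1.21 for Mrps18c at the top left and 0.86 for Mrpl36 at the top right. The grey line spans 0 for 29 of the 77 members, and errors of the fitted change are not drawn.

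By the lists of protein origin used here, the 46 members listed as homologues of bacterial ribosomal proteins had a median change of 0.19 (log2), with 0 called. The 30 tested members listed as mitochondria-specific had a median of 0.13, with Mrps23 called. Mrps18c was listed with the bacterial homologues, whereas Mrps18a and Mrps18b were listed as mitochondria-specific. Within the small subunit these medians were 0.19 (16 genes) and 0.13 (10 genes), and within the large subunit 0.19 (30 genes) and 0.13 (20 genes). The groups differed by less than the spread of genes within each, and the difference was not tested. Proteins of Mrps18a and Mrps30 are known to sit in the large subunit, and that of Mrps36 belongs to the oxoglutarate dehydrogenase complex. Moving them accordingly left medians of 0.13 for the small and 0.15 for the large subunit. The 20 members with a pseudogene copy had a median of 0.13 and the 57 without one 0.16.

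The head-to-head genes Mrpl46 and Mrps11 had unlike ratios. Mrpl46 had 8.96 and 10.7 CPM in IP and 6.90 and 10.8 in total RNA, with ratios of 0.37 and -0.02. Mrps11 had 10.4 and 10.3 CPM in IP and 12.2 and 7.73 in total RNA, with ratios of -0.23 and 0.41. The groups overlapped for both genes. Their counted spans overlap by 413 bases on opposite strands, and counting was by strand.

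Few other genes of mitochondrial translation passed the test. Of 5 further proteins of the mitoribosome that carry other names, 1 was lower. Ptcd3, a pentatricopeptide repeat protein of the small subunit, had 26.1 and 18.9 CPM in IP and 47.4 and 26.3 in total RNA, with each IP value under each total RNA value. It fell by 0.69 ± 0.15 (SE) on the log2 scale with an adjusted p of 1.14e-04 by edgeR's quasi-likelihood test, and it was called in all 9 fits with the block. With single libraries left out and no pairing its change ranged from -1.08 to -0.23, with 0 calls. Of 15 listed factors of mitochondrial translation 0 were called in either direction, and their median was 0.04. The list held initiation, elongation, release and recycling factors, and also Slirp, Lrpprc, Oxa1l, Taco1 and Mtfmt. Of 24 tested assembly factors 1 was called. Ngrn, needed for the stability of the large subunit rRNA, had 18.4 and 21.2 CPM in IP and 14.9 and 12 in total RNA. Its change was 0.57 ± 0.19 with an adjusted p of 0.0254 in edgeR, called in 5 of the 9 fits with the block and lost with scaling by library size only, with the offset and after thinning. Gtpbp10, a GTPase of large-subunit assembly, was too low to be tested. Neither Ptcd3 nor Ngrn was called without the block.

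Nuclear-encoded subunits of the respiratory chain and ATP synthase work beside the products of the mitoribosome. Of their 80 tested genes, 25 were higher and 0 lower, with a median of 0.24. They were measured with less error, with a median standard error of 0.13 against 0.24 for the mitoribosomal genes and median levels of 42.3 against 10.1 CPM. At the median standard error of the members a change of 0.66 on the log2 scale (1.57-fold) was needed for a call, and 68 of 77 members had a change under 0.5 in size (88.3%, against 83.3% of all genes). The difference in the share of calls between these classes was not tested. Of 82 cytosolic ribosomal protein genes, 13 were higher and 14 lower, with a median of 0.07. Among the 59 of these without an annotated snoRNA in counted exons, 12 were higher and 2 lower, with a median of 0.13. No member had a snoRNA or scaRNA in its counted exons. Of 13 mRNAs encoded in mitochondrial DNA only 7 could be tested, of which 6 were lower and 0 higher, with a median of -0.99. The untested ones had few or no counts. For example, mt-Co2 had 12 and 3 in IP and 8 and 6 in total RNA. By contrast mt-Co1 had 8279 and 3564 in IP and 5414 and 3595 in total RNA. The reason for such uneven counts was not tested, and the median covers the tested mRNAs only.

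Members were shorter than other genes and of like base composition. Median exonic length was 2255 bases for members against 4672 over all genes tested, and median GC content was 50.4% against 50.5%. Over members, the log2 fold change had a Spearman correlation of -0.11 with length, -0.21 with GC content and -0.26 with mean CPM (77 genes in the same 4 libraries), and over all genes these were -0.17, -0.32 and -0.14. The part of these features in the members' ratio was tested only through the offset given above.

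The replicate numbers differed in the level of these mRNAs and of glial marker genes. Replicate 2 had more of the members than replicate 1, by a median log2 difference of 0.19 in IP and 0.20 in total RNA, against medians of -0.002 and -0.01 over all genes. The level was higher in replicate 2 for 55 of 77 members in IP and for 53 in total RNA. Neuron markers such as Tubb3 and Map2 were abundant in every library, with a sum of 6305 to 6952 CPM over 10 genes. The 6 astrocyte markers summed to 2081 CPM in IP and 1729 in total RNA of replicate 1, against 687 and 666 in replicate 2. The 6 microglia markers summed to 60.4 and 60.1 CPM in replicate 1 against 6.83 and 4.93 in replicate 2. Between IP and total RNA, Snap25 was higher and Nefl lower among the 10 neuron markers, and Aqp4 and Slc1a3 were higher among the 6 astrocyte markers. The sum of 5 endothelial markers was 1.08 to 2.82 CPM, that of 6 oligodendrocyte lineage markers 57.2 to 67.4 CPM and that of 6 markers of dividing progenitors 81.3 to 112 CPM. Most of the progenitor sum came from Nes (46.5 to 68.0 CPM) and Sox2 (11.2 to 53.0 CPM). Mki67, Top2a and Eomes of the same list had at most 9 counts in a library and were too low to be tested. Fewer cells of a type and less RNA per cell cannot be told apart in these bulk samples, and the part of cell makeup in the difference between replicates was not tested.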

How the data were processed

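Raw read counts per gene were deposited by the authors for each of 2 RPS2 IP and 2 total RNA libraries, beside the exonic length of each gene. Counting, per the file headers, was done by the authors by strand with featureCounts 1.5.3 on mm10, without reads that lay in several genes or aligned to several loci. Adapter trimming with cutadapt and alignment with STAR are described in the study's methods, and no removal of PCR duplicates is named, so repeated copies of a molecule may be counted.

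Symbols were taken from GENCODE M21 for 30934 of 31053 identifiers. Members and lists were chosen with earlier results of these data known. Counts were filtered with filterByExpr, scaled by TMM and tested in edgeR 4.0.16 (R 4.3.3) by the two-sided quasi-likelihood test with Benjamini-Hochberg adjustment over 12336 genes and a threshold of 0.05. The replicate number was a block, because the methods take total RNA from the same samples as the IP. Same-numbered libraries deviated together from their group means (Pearson correlation 0.733 across genes). The block leaves 1 residual degree of freedom, and the prior degrees of freedom were estimated as infinite, so each gene shared the fitted dispersion trend and the p-values rest on it. Ratios within a pair are differences of log2 CPM with a prior count of 2. Copies were sought among annotated transcripts with blastn 2.17.0. Scripts were tested on simulated data.

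Named were members called in either direction, the 5 highest and 5 lowest members of each subunit with one sign in both pairs, the 3 highest of each subunit by CPM per kb, members not tested and pathway genes called. Mrpl23, Mrpl33, Mrpl16, Mrpl42, Mrpl46, Mrps11 and the marker genes were named after their values were seen. Alternatives were DESeq2 1.42.0, limma-voom (limma 3.58.1), other scalings and filters, a GC and length offset, thinning, no block and each library left out.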

Additional observations from a re-analysis of the deposited data

How the results depend on the processing

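The members' median log2 fold change of 0.15 stayed above 0 under every alternative run, though its distance from the median of all genes varied. It was 0.146 without the replicate block, 0.062 with library size only (all genes -0.073), 0.133 with median-ratio size factors, 0.173 with no low-count filter, 0.157 with at least 10 counts in every library, 0.046 with the GC and length offset, 0.138 after thinning, 0.135 in DESeq2, 0.145 in limma-voom and 0.155 without members that have copies. Leaving out single libraries gave 0.016 to 0.32. The members' median lay 0.141 above that of all genes in the main fit and 0.024 above it with the offset. With single libraries left out this distance was 0.024 to 0.301. Members with a change above 0 numbered 60 of 77 in the main fit, 49 with the offset and 40 to 63 with libraries left out. The large-subunit median was 0.065 with library size only, 0.047 with the offset and -0.010 to 0.378 with libraries left out, reversed without IP replicate 2. The small-subunit median was 0.057 to 0.238 with libraries left out. The small minus large difference ran from -0.241 to 0.121 with libraries left out, reversed without replicate 2 of the IP (0.067) and replicate 1 of total RNA (0.121). Leaving out a library was fitted without the block, so the difference between replicate numbers enters these values. Over all genes, calls were 818 higher and 931 lower, against 283 and 878 with library size only, 586 and 328 with the offset and 158 and 382 in DESeq2.

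The count of members called higher was 1 with the block and 0 without the block, with library size only, with the offset, after thinning, in DESeq2 and with each library left out. DESeq2 left 73 of the 77 members without an adjusted p. The number called lower was 0 throughout. Of the named genes, Mrps30 reversed with library size only (-0.0072, with the shift of all genes) and with the offset (-0.043), Mrps34 with the offset (0.022) and Mrps15 after thinning (0.0083). With libraries left out Mrps30 ranged from -0.0050 to 0.15, Mrps34 from -0.24 to 0.039, Mrpl28 from -0.25 to 0.096 and Mrpl43 from -0.38 to 0.072. The cause of the other reversals was not tested. With 4 to 241 total RNA counts a member, a change under 1.57-fold was not called at the members' median standard error.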
